A study of Mus musculus with 4 samples.

Results

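The nuclei described here come from the mouse brain and were selected as excitatory. They carry RNA of at least 2 genes out of a group of 6 that includes Rspo2 and Slc26a4. They were selected on the counts of single nuclei: a UMI (1 counted RNA molecule) of Slc17a7, none of Gad1 or Gad2, and at least 4 UMIs from at least 2 of Rspo2, Slc26a4, Galnt14, Blnk, Cwh43 and Bmp3. Nuclei with any Syt6, Rspo1, Ctgf or Rxfp1 UMI were left out, as were those with over 1 UMI of Scn7a or over 3 in all of Ccbe1, Stard8 and Tmc1. The rule found 1273 members, 2.44% of the 52132 nuclei kept and 6.53% of the 19491 kept nuclei with Slc17a7 and no Gad1 or Gad2, called Slc17a7 nuclei below.

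The series compared wild-type mice (WT) with Csf1r+/- mice (HET), which carry 1 inactivated copy of the gene for the colony-stimulating factor 1 receptor, by single-nucleus RNA sequencing of the brain. All mice were untreated C57/BL6 females of 2 months, perfused before detergent-free isolation of nuclei and bead removal of myelin. The 2 WT and 2 HET libraries used here are each labelled as a separate sample, and their p-values measure the spread between these 4 libraries. Further libraries of the study were not analysed here. The allele is a germline one, present in every cell, so a difference in neurons cannot be assigned to one cell type, and the labels name no brain region.

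Slc17a7 encodes VGLUT1, which loads glutamate into synaptic vesicles, and is the main vesicular glutamate transporter of cortical, hippocampal and many amygdalar neurons. R-spondin 2, the product of Rspo2, is a secreted protein that strengthens Wnt signalling by sparing Frizzled receptors from removal at the cell surface, and in the amygdala Rspo2 is known as a marker of excitatory neurons of the anterior basolateral nucleus. Slc26a4 encodes pendrin, an anion exchanger known from the inner ear, thyroid and kidney. Of the other genes of the rule, Galnt14 encodes an enzyme that starts O-linked glycosylation, Blnk an adaptor of B-cell receptor signalling, Cwh43 a protein of glycolipid anchor processing and Bmp3 a secreted member of the bone morphogenetic protein family.

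The libraries held 16114 and 15247 kept nuclei in WT and 9589 and 11182 in HET, and 383, 293, 268 and 329 members in the same order. No barcode was shared by members of different libraries. Members were the deeper nuclei: their median was 10968 and 9037 UMIs per nucleus in WT and 13240 and 11407 in HET, against 7411, 6241, 9991 and 8216.5 in the other Slc17a7 nuclei. A rule that asks for 4 UMIs is met more easily by a deep nucleus, and after the nuclei with at least 3000 UMIs were thinned to that number, 188 met it. The shallower nuclei left out of the thinning numbered 3618 and 4143 in WT and 1381 and 1466 in HET, and 0 to 2 per library were members.

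The targeted gene was read first, in 157 to 228 nuclei per library that had at least 3 of 5 other microglial genes and no Slc17a7. Csf1r was at 378 and 258 CPM, the gene's UMIs scaled to a common total over all UMIs of the nuclei, for WT against 239 and 232 CPM for HET, below both WT libraries, though WT replicate 2 and HET replicate 1 were close. WT replicate 2 stood apart from the other libraries in the members themselves. Its members held 4097 CPM of mitochondrial RNA, against 1054 in WT replicate 1 and 1951 and 1290 in HET. Apoe, an apolipoprotein gene of glia, stood there at 98.2 CPM, against 18.7 in WT replicate 1 and 17.3 and 12.6 in HET. WT replicate 1 stood apart in another way, described below: it held most of the members of 2 clusters.

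Galnt14 gave 47.6% of the UMIs that qualified the members, Rspo2 28.7% and Slc26a4 10.1%, so most members qualified through Galnt14 and Rspo2 rather than through Slc26a4. A Galnt14 UMI was found in 88.1% of members, an Rspo2 UMI in 72.7% and a Slc26a4 UMI in 42.3%. Only 28.6% of members held both Rspo2 and Slc26a4, and 61.4% held both Rspo2 and Galnt14. Blnk was found in 28.2%, Cwh43 in 27.7% and Bmp3 in 21.1%. The median member had 6 UMIs of the 6 genes and the highest had 54. Exactly 2 of the 6 genes were found in 45.4% of members, and all 6 in 10 nuclei.

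Rspo2, on chromosome 15 from base 43020794 to 43170826 of GRCm38, was measured in members at 204 and 210 CPM for WT against 146 and 202 CPM for HET. Slc26a4, on chromosome 12 from 31519827 to 31559969, gave 72.1 and 65.3 CPM for WT against 44.9 and 81.7 CPM for HET. HET replicate 1 was lowest for both genes, and the genotypes overlapped for Slc26a4. Galnt14, on chromosome 17 from 73493228 to 73710453, gave 297 and 377 CPM for WT against 299 and 307 CPM for HET. These levels follow from the selection and are given without a test.

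The same genes were read in nuclei that should lack them, to give the background of free RNA. In 6699 inhibitory nuclei with at least 2 UMIs of Gad1 and Gad2 together and no Slc17a7 (median 5643 UMIs), Rspo2 stood at 14.4 CPM and Slc26a4 at 2.62 CPM over all libraries. In 2220 oligodendrocyte nuclei with at least 2 UMIs of Mag and Mog together and no Slc17a7 (median 2366 UMIs), they stood at 9.64 and 2.50 CPM. In the other Slc17a7 nuclei, Rspo2 stood at 39.6 CPM and Slc26a4 at 10.4 CPM. Galnt14 was higher in the inhibitory nuclei (100.1 CPM) than in the other Slc17a7 nuclei (73.4 CPM), so it marks more than these excitatory nuclei.

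**Figure D1:**
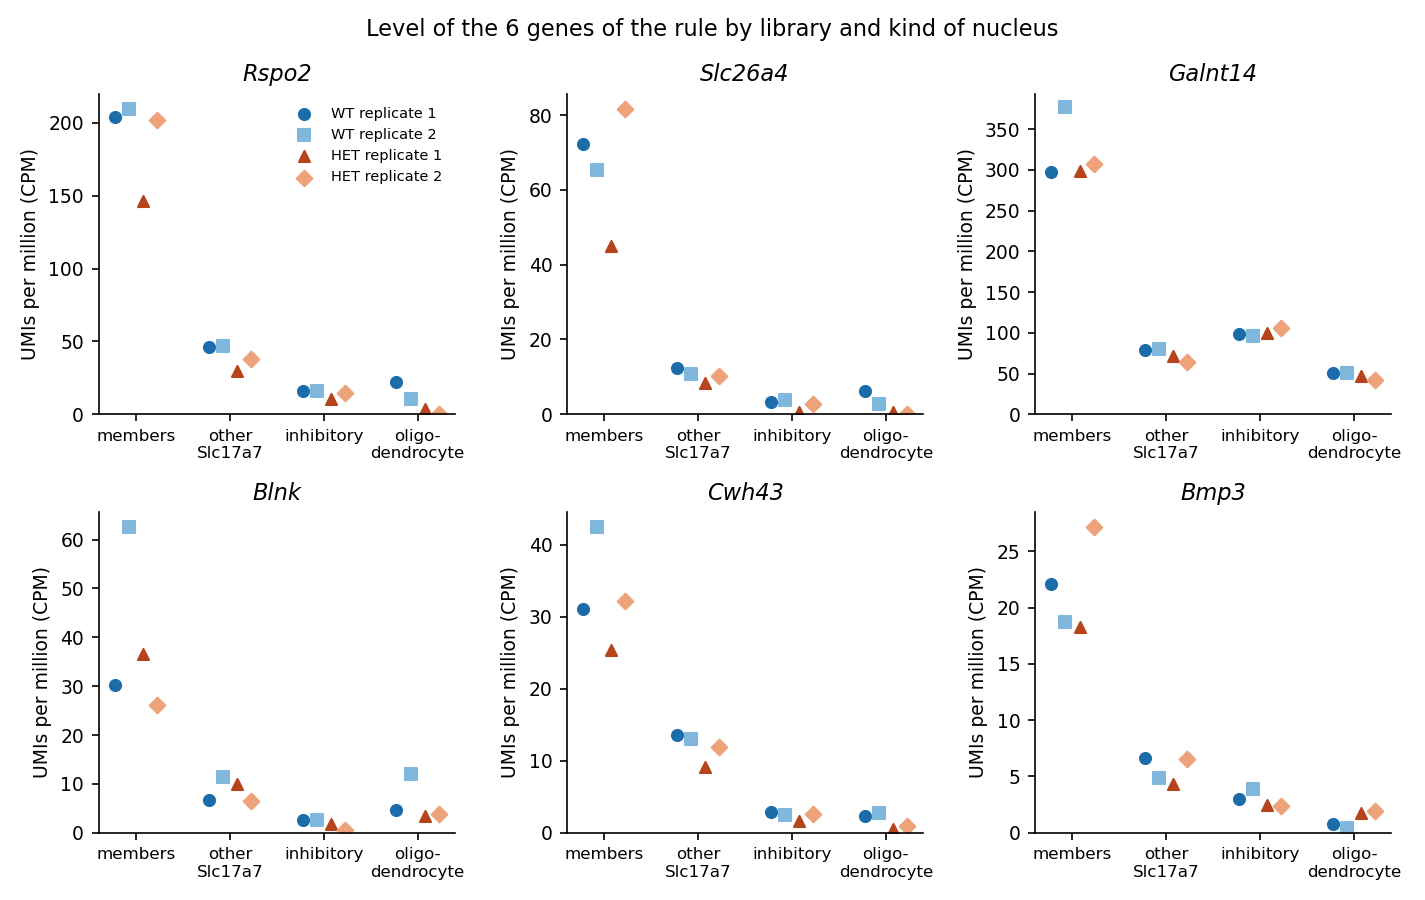
Level of each of the 6 genes that qualified members in CPM (vertical axis, from 0) in members, other Slc17a7 nuclei, inhibitory nuclei and oligodendrocyte nuclei, with 1 point per library. Members lie above the other kinds for all 6 because they were selected on these genes, and Rspo2 in members runs from 146 to 210 CPM.

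A single cell type was not what the rule found. When all 19491 Slc17a7 nuclei were grouped on genes outside the rule, members fell into 36 of 39 clusters, and 23 clusters held at least 10 members. Of the 20 nearest neighbours of a member, 33.4% on average were members too, against 4.94% of the neighbours of other Slc17a7 nuclei. No cluster was made of members alone: the highest share of members in a cluster was 35.3%. The nuclei are therefore called by their rule and leading genes below, and not as a type.

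Cluster 5 held the most members, 431 or 33.9% of them, among its 1221 nuclei. It gave 28.7% and 39.9% of the WT members and 27.2% and 39.8% of the HET members. Its leading genes outside the rule included Dnah14, the cadherin gene Cdh9, the BMP receptor gene Bmpr1b and the collagen gene Col6a1. The genes of the rule were not limited to its members: Rspo2 was found in 56.8% of all its nuclei, Galnt14 in 79.7% and Slc26a4 in 30.7%. The regional list with most hits in it, that for claustrum and endopiriform nucleus, gave 3 genes (Oprk1, Gnb4 and Ntng2), none of them among its 10 leading genes, and the cluster was left unnamed.

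Cluster 8 held 139 members and was led by Il1rapl2, a gene of the interleukin-1 receptor accessory protein family, and Deptor, an inhibitor of mTOR. Cluster 12 held 76 members and had 6 genes of the list for layer 5 extratelencephalic neurons, Fezf2 and Bcl11b among them, but none of the 6 was among its leading genes and it was left unnamed. Cluster 23 held 37 members and was claustrum-like: it had Nr4a2, Oprk1, Gnb4, Synpr and Ntng2, and was led by Car3. Cluster 25 held 35 members and was the one with most of the amygdala list, with Etv1, Lypd1, Lmo3 and Nr2f2. It took 2.75% of the members.

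The members of clusters 15 and 19 came mostly from 1 library. Cluster 15, led by Ndst4, held 82 members, of which WT replicate 1 gave 55 and the other libraries 6, 10 and 11. Cluster 19, led by Fibcd1 and Pde11a, held 67 members, of which WT replicate 1 gave 45 and the others 9, 9 and 4. It had 4 genes each of the layer 5 extratelencephalic list and the hippocampal CA1 list and was left unnamed. Clusters 15 and 19 made up 14.4% and 11.8% of the members of WT replicate 1. In the other libraries, cluster 15 was 2.05% to 3.73% of members and cluster 19 was 1.22% to 3.36%. The other Slc17a7 nuclei of WT replicate 1 leaned the same way, with 3.39% in cluster 15 against 0.92% to 1.44% in the other libraries.

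**Figure D2:**
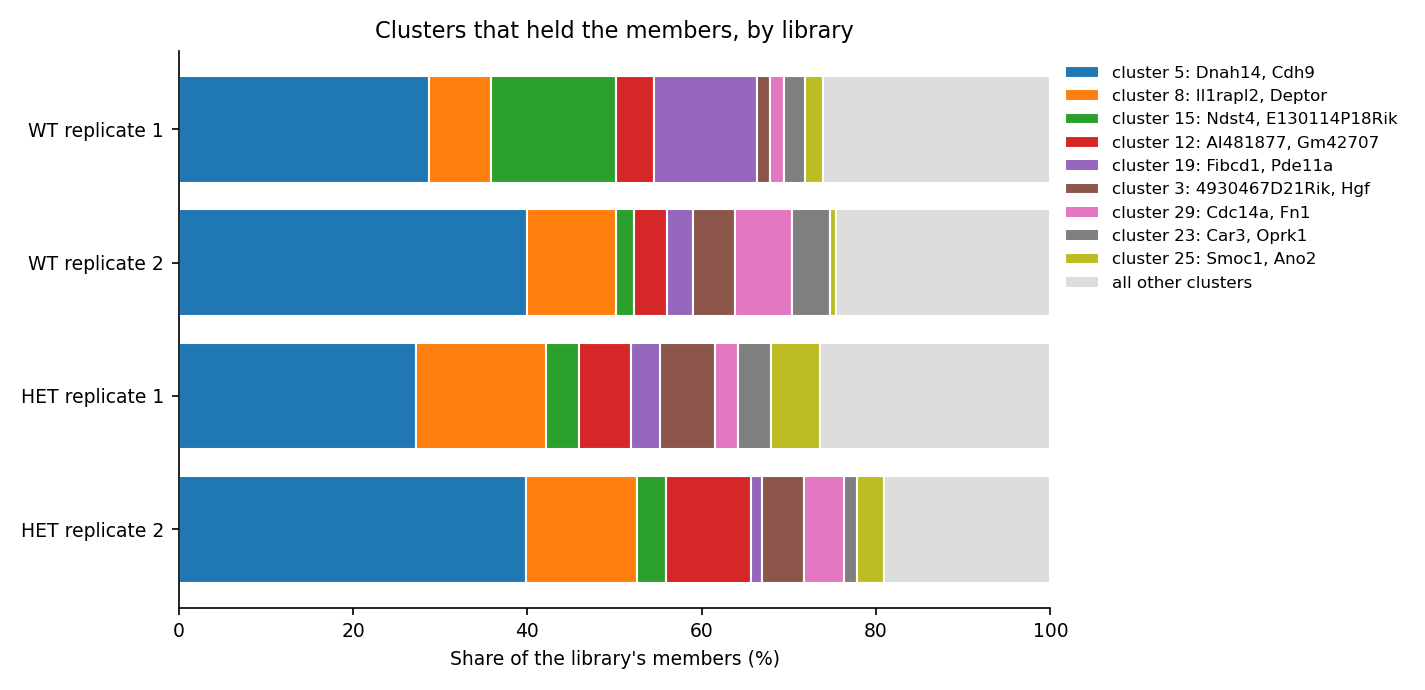
Share of each library's members (horizontal axis, %) in the 9 clusters that held the most members, with the 2 leading genes of each cluster in the key. Cluster 5 is the longest part of every bar, and clusters 15 and 19 are wide only in WT replicate 1.

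The members of different clusters carried the genes of the rule in different mixtures. In the members of cluster 19, Rspo2 stood at 309 CPM and Slc26a4 at 112 CPM. In those of cluster 12, Rspo2 stood at 32.4 CPM and Slc26a4 at 98.0 CPM, so these members were Slc26a4 and Galnt14 nuclei with little Rspo2. Cluster 8 was the reverse, with Rspo2 at 226 CPM and Slc26a4 at 26.9 CPM. Galnt14 ran from 157 CPM in cluster 8 to 661 CPM in cluster 23.

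Genes outside the rule separated the members further. Cdh9 stood at 531 CPM in members of cluster 5, 633 CPM in cluster 15 and 520 CPM in cluster 23, but at 29.9 CPM in cluster 3 and 43.7 CPM in cluster 12. Il1rapl2 stood at 2841 CPM in cluster 8 and at 88.2 CPM in cluster 12. Oprk1, the kappa opioid receptor gene, stood at 275 CPM in cluster 23, 27.4 CPM in cluster 5, and had no UMI in the members of clusters 12 and 29. Wfs1, a gene of the endoplasmic reticulum, stood at 72.7 CPM in cluster 29 and at most 6.0 CPM in the other 7 of the 8 largest.

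**Figure D3:**
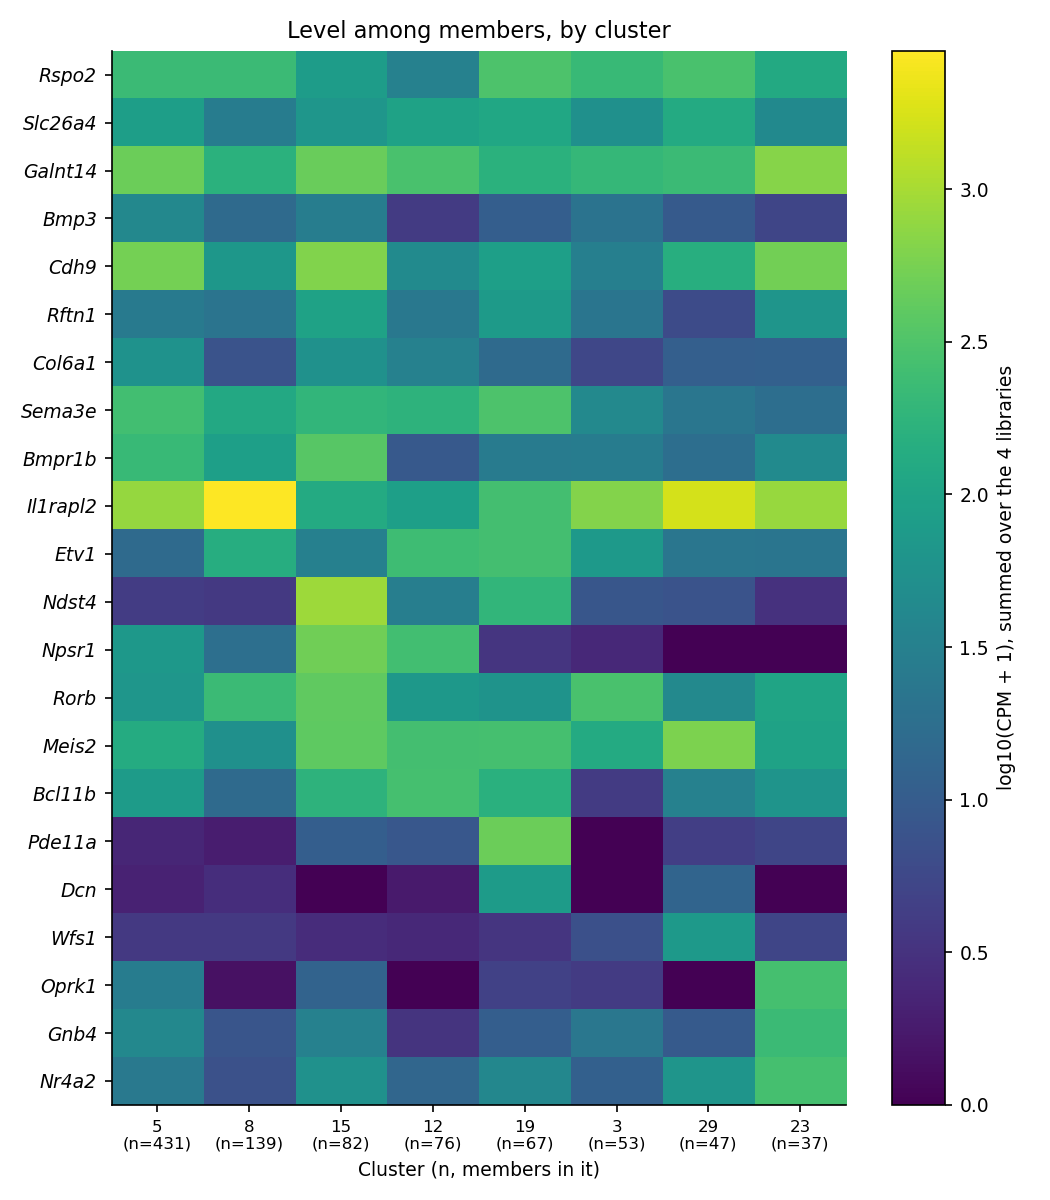
Level of 22 genes (rows) among the members of the 8 clusters that held the most members (columns), as log10(CPM + 1) of UMIs summed over the 4 libraries. Rspo2 and Galnt14 are present in every column, while Il1rapl2 peaks in cluster 8, Ndst4 in cluster 15, Pde11a in cluster 19 and Oprk1 in cluster 23.

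Members just inside the threshold were close in these measures to the nuclei just outside it. The 261 members with exactly 4 UMIs had a median of 8391 UMIs in all, 19.2% of them lay in cluster 5, and Cdh9 stood there at 201 CPM. The 370 nuclei that met every other condition with 3 UMIs from 2 genes had a median of 7864.5 UMIs, with 17.3% in cluster 5 and Cdh9 at 150 CPM. Of the 519 members with 8 or more UMIs, 43.7% lay in cluster 5, with Cdh9 at 387 CPM. The exclusions removed 1234 of 2507 candidates, 49.2%, and 901 of those removed carried Ctgf or Rxfp1. The excluded nuclei had Cdh9 at 291 CPM, and 25.9% of them lay in cluster 5.

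Genes that set members apart from the other Slc17a7 nuclei were few and their margins small. The others include the 1234 candidates removed by the exclusions and the nuclei just under the threshold. Their part in the small margins was not tested. Of 5811 genes outside the rule with a UMI in at least 20% of members, 0 stood at 4 times the level of the other Slc17a7 nuclei in every library (0% of genes). At 2 times in every library there were 3 (0.0516%): Rftn1, Cdh9 and Col6a1. Without WT replicate 1 there were 6, without WT replicate 2 there were 7, and among genes found in at least 10% of members there were 9, and each of these sets held the same 3. No test is given, because the rule and these levels come from the same nuclei.

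Cdh9, a cell adhesion gene, reached 352 and 306 CPM in members of WT against 248 and 315 CPM in those of HET. In the other Slc17a7 nuclei it stood at 166, 145, 81.9 and 114 CPM, so the lowest member library lay above the highest of the others. Rftn1, whose product organises lipid rafts, reached 49.6, 27.9, 29.7 and 27.9 CPM in members of the 4 libraries, against 8.21 to 19.5 CPM in the others. Col6a1, a chain of collagen VI, stood at 27.7 to 33.0 CPM in members and 10.4 to 15.1 CPM in the others. All 3 were thus higher in members of each library by 2.03 to 3.39 times.

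Sema3e, a secreted axon guidance cue, stood at 155 to 169 CPM in members and 62.2 to 83.1 CPM in the others, 1.97 to 2.51 times higher. Il1rapl2 stood at 756 to 1146 CPM, against 404 to 491 CPM, and was found in 68.0% of members. Bmpr1b was 1.86 to 3.84 times higher, with HET replicate 2 highest at 151 CPM. Further genes of the leading group were the sorting receptor Sorcs3 (1.81 to 2.42 times), the mannosidase Man1a (1.78 to 2.16), the netrin-related Ntng2 (1.77 to 2.70), the synaptic C1q-like gene C1ql3 (1.75 to 2.25), the cannabinoid receptor Cnr1 (1.67 to 2.30) and the teneurin Tenm3 (1.64 to 2.06). The group also held Chst11, Nnat, Zfp804b, Ptpre, Gpc4, Ptpru, Dgkb, Stum, Sccpdh, St6galnac5, Pdia5, 6530403H02Rik and AC129186.1, each at least 1.56 times higher in every library.

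The 10 genes lowest in members included several known as markers of cortical layers. Foxp2, a transcription factor of layer 6 corticothalamic neurons, stood at 40.4 to 64.1 CPM in members and 173 to 235 CPM in the others, 0.23 to 0.30 times their level. Rorb, a layer 4 factor, stood at 89.4 to 184 CPM against 324 to 448 CPM. Cux1 and Cux2, factors of the upper layers, were at 0.31 to 0.51 and 0.32 to 0.52 times the others. Kcnh5, Rcan2, Trabd2b, Hs3st4, Kcnk2 and Gm16599 completed the 10. The rule leaves out nuclei with Syt6, another gene of layer 6, Rspo1, a gene of the layer 4 list, and Ctgf or Rxfp1, of the layer 6b list. Of the candidates, 241 carried Syt6, 73 Rspo1 and 901 Ctgf or Rxfp1. The part of these exclusions in the low Foxp2, Rorb and other layer genes was not tested.

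**Figure D4:**
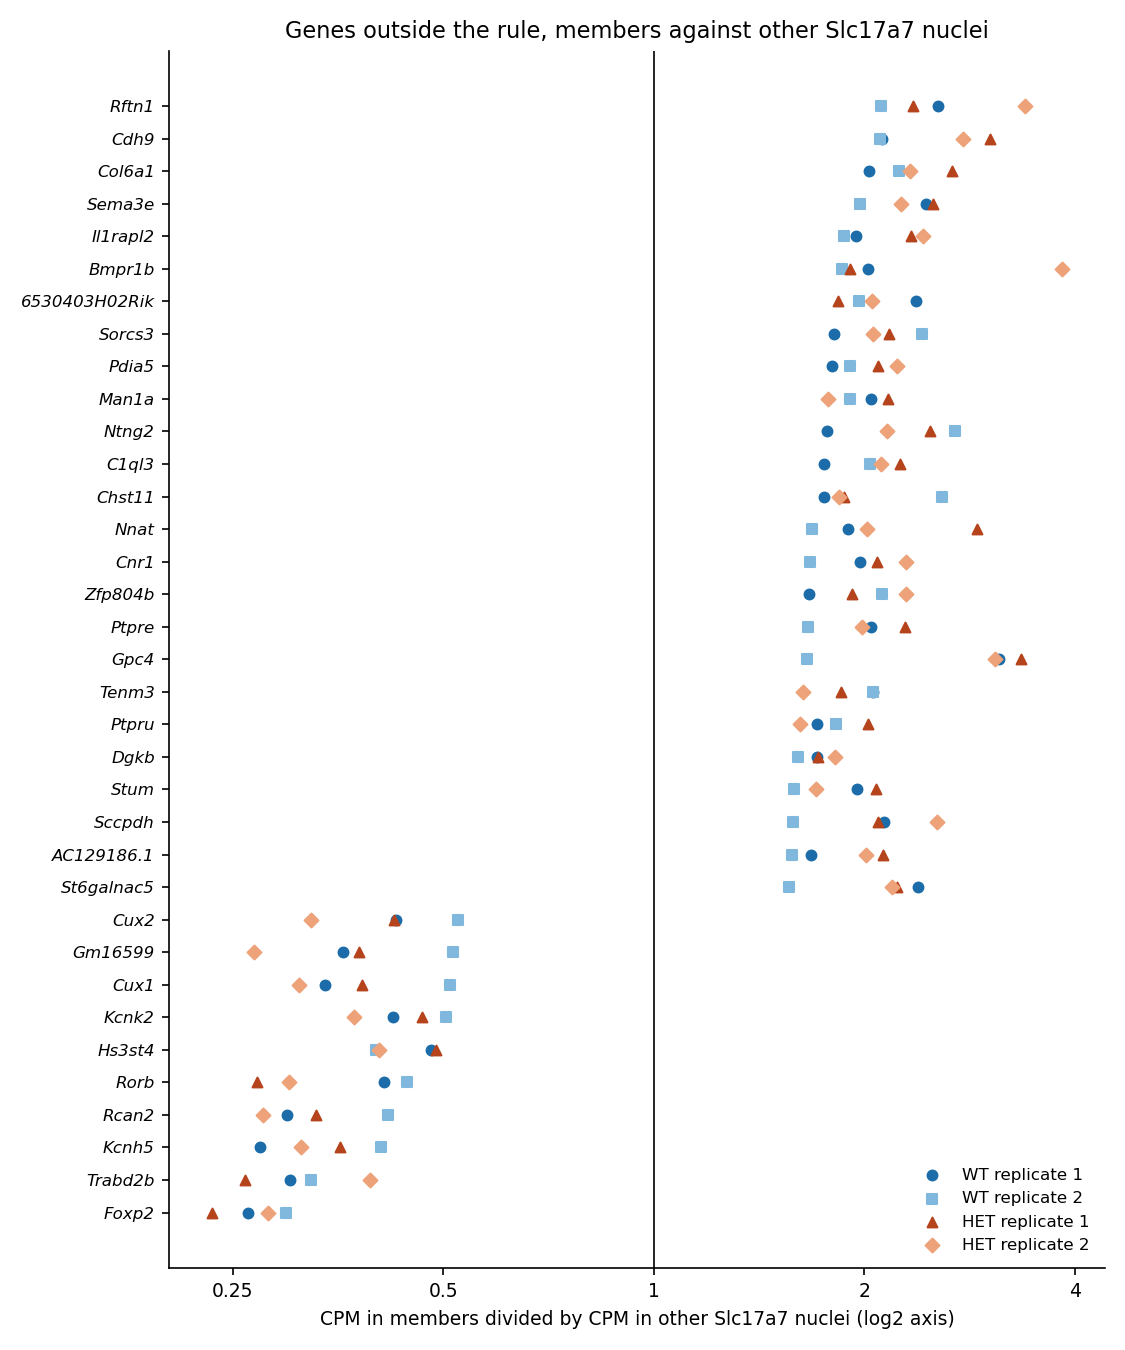
Level in members divided by the level in the other Slc17a7 nuclei (horizontal axis, log2 scale, 1 marked by the line) for the 25 highest and 10 lowest genes outside the rule, with 1 point per library. Ratios of the upper genes lie between 1.56 and 3.84 and those of the lower genes between 0.23 and 0.52.

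Regional marker lists were read in the same way, beside all genes outside the rule at 1 CPM or more, of which 12.7% were higher and 17.9% lower in members in every library. All 6 genes of the upper-layer list were lower in every library, as were all 5 of the layer 6 corticothalamic list other than Syt6, which the rule excludes. Of the claustrum and endopiriform list, 4 of 6 were higher: Ntng2, Gnb4, Nr4a2 and Oprk1, the last at 19.9 CPM against 6.99 CPM. The zinc transporter gene Slc30a3 of that list was lower, at 0.65 to 0.83 times the others. Of the CA1 list, 5 of 6 were higher, Pex5l, Man1a, Wfs1 and Dcn among them. The amygdala list did not lean upward: 2 of 8 were higher and 3 lower, with a median log2 ratio of -0.10, against -0.04 over all genes. Etv1 was higher (89.9 against 59.0 CPM), and Meis2 lower (201 against 282 CPM).

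Among the signalling genes, the Wnt list, which holds R-spondins, Wnt ligands, Frizzled receptors and their antagonists, had 4 of 26 genes higher and 4 lower in every library, a median log2 ratio of 0.01. Dkk3, a dickkopf family gene, was among its most abundant members at 112 against 89.7 CPM. The BMP list had 5 of 29 higher and 3 lower. Its receptor Bmpr1b stood at 113 against 48.4 CPM and the transducer Smad3 at 78.0 against 56.4 CPM, while the type II receptor Bmpr2 stood at 132 against 130 CPM (0.96 to 1.10 times). The anion transport list, which holds the family of Slc26a4, had 3 of 22 higher and 6 lower, and its most abundant gene, the bicarbonate transporter Slc4a10, stood at 543 against 542 CPM. Of the GalNAc transferase list 4 of 14 were higher, Galnt17 and Galnt18 among them, and 2 were lower.

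Of 24 glutamate receptor genes outside the rule, 11 were higher and 3 lower in every library. The AMPA receptor gene Gria1 stood at 1124 against 736 CPM and the NMDA receptor gene Grin3a at 87.7 against 46.1 CPM, while the kainate receptor gene Grik1 stood at 65.2 against 145 CPM. Of 48 potassium channel genes, 16 were higher and 12 lower, with Kcns3 at 8.56 against 3.41 CPM and Kcnh5 at 115 against 345 CPM. Of 45 modulator receptor genes, 13 were higher and 6 lower, with the tachykinin receptor Tacr1 at 6.37 against 2.92 CPM. Of 49 axon guidance genes 19 were higher and 16 lower, and of 25 cadherins 6 were higher and 10 lower. None of the 78 ribosomal protein genes was higher and 36 were lower, and the list summed to 1239 CPM in members and 1451 CPM in the others.

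Markers of other cells were read in the same way, and no gene of these lists at 1 CPM or more was higher in members in every library. The oligodendrocyte list summed to 124 CPM in members and 148 CPM in the others, with Mbp the most abundant, and in WT replicate 1 it was slightly above (71.5 against 69.8 CPM). The microglia list summed to 58.0 and 63.0 CPM, led by P2ry12, and in HET replicate 1 members were slightly above (62.4 against 60.5 CPM). The astrocyte list summed to 364 and 516 CPM, of which Slc1a2 made up 351 and 502 CPM. The inhibitory list summed to 320 CPM in members and 421 CPM in the others, led by Adarb2, and in HET replicate 1 members were above (336 against 296 CPM). Of its genes, Gad1 and Gad2 are at 0 by the rule, and Slc32a1 stood at 1.85 and 1.94 CPM. High doublet scores were given to 13.1% of members and 10.8% of the others, and 48 members lay in the 5 clusters where such nuclei were the majority. Among these, cluster 22 (19 members) had 6 genes of the oligodendrocyte list, cluster 27 (8 members) 6 of the microglia list and cluster 35 (5 members) 6 of the endothelial list. A further 32 members lay in cluster 10, named by 3 genes of the inhibitory list, where 42.8% of nuclei had high scores.

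Set against nuclei chosen on the genes that excluded candidates, members differed by more genes. Against 1150 nuclei with at least 2 Syt6 UMIs, 9 genes stood 4 times higher in every library. Among them were Ntng2 (97.6 to 139 CPM in members, 12.7 to 16.2 CPM there), C1ql3 and the calcium channel gene Trpc5. Against 1356 nuclei with Rspo1 there were 7, among them Cdh9, Col6a1 and the sulfatase gene Sulf1. Against 278 nuclei with at least 2 Scn7a UMIs there were 3: Cdh9, Col6a1 and Sema5b. The Scn7a nuclei numbered only 48 to 79 per library. Col6a1 stood there at 0 to 5.16 CPM, with no UMI in WT replicate 2, and Sema5b at 2.49 to 11.4 CPM, so these ratios rest on few UMIs. Cdh9 did not separate members from the Syt6 nuclei, where it stood at 195 to 282 CPM.

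The share of members by genotype asked whether loss of 1 Csf1r copy changed how many such nuclei were recovered. Of all kept nuclei, members were 2.38% and 1.92% in WT and 2.79% and 2.94% in HET (mean 2.15% ± 0.32 SD, n = 2, and 2.87% ± 0.10, n = 2). Both HET libraries lay above both WT libraries, at p = 0.333 in the two-sided exact permutation test, the smallest that 2 libraries against 2 can give. Of Slc17a7 nuclei, members were 7.25% and 5.82% in WT and 6.44% and 6.57% in HET (6.53% ± 1.01 and 6.50% ± 0.09, n = 2 each). This difference was -0.03 percentage points (p = 1, exact permutation test) and the WT libraries lay on either side of the HET ones. Among the nuclei with at least 3000 UMIs the difference was 0.48 percentage points before thinning (p = 0.333, exact permutation test) and -0.03 after it (p = 0.667, exact permutation test). With the thinned members taken over all kept nuclei it was 0.03 (p = 0.667, exact permutation test), so the sign after thinning depended on the denominator and both differences were within the spread between libraries. Of Slc17a7 nuclei, the thinned share was 1.91% and 1.87% in WT against 1.37% and 1.72% in HET, a difference of -0.35 points (p = 0.333, exact permutation test).

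The second question was whether gene levels within members differed by genotype. The UMIs of members were summed per library, 2866870 to 4651707 per library over the genes tested, and compared with edgeR's quasi-likelihood test. Of 8851 genes tested, 27 (0.305%) passed the unadjusted p of 0.01 used in the study, 9 higher (0.102%) and 18 lower (0.203%) in HET. The study applied that cutoff to edgeR's likelihood-ratio test and to more mice, so the counts are not like for like. None passed an adjusted p of 0.05 in the quasi-likelihood test, and 214 (2.42%) had an unadjusted p under 0.05. On simulated counts the same test passed 0.936% of unchanged genes at 0.01, against the 0.305% seen. Those counts were drawn gene by gene, with no shift common to many genes of a library. They cannot say how many genes would pass here without a genotype effect. At the adjusted threshold DESeq2 gave 0 genes and edgeR's likelihood-ratio test 1, and without WT replicate 2 the quasi-likelihood test gave 4, Pde11a and 6530403H02Rik among them. In the other Slc17a7 nuclei, 0.362% of the same genes passed 0.01. In bulk sums of this kind, fewer nuclei of a kind and less RNA per nucleus cannot be told apart.

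The composition of the members moved with these comparisons, since clusters 15 and 19 gave 14.4% and 11.8% of the members of WT replicate 1. With the members of cluster 5 alone, 25 genes passed 0.01, and 2 of them were among the 27. With equal weight for each of the 5 largest clusters, 39 passed and 9 were shared. Without WT replicate 2, whose mitochondrial RNA stood apart, 189 genes passed and 16 were shared. Without WT replicate 1, 123 passed and 9 were shared.

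Among genes higher in HET members, Chn2, which encodes the Rac GTPase-activating protein beta-chimaerin, had the smallest p. Its TMM-scaled levels were 24.8 and 28.6 CPM for WT against 57.8 and 48.8 CPM for HET, and the groups did not overlap. Its log2 change was 1.0 ± 0.18 (SE), with an edgeR quasi-likelihood p of 6.3e-04 and an adjusted p of 1.0. In cluster 5 alone the log2 change was 0.49 ± 0.31, which did not pass 0.01. The other Slc17a7 nuclei gave a log2 change of 0.25 ± 0.10.

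Zfp804b, a zinc finger gene, had 850 and 643 CPM for WT against 1138 and 1076 CPM for HET. Olfm2, an olfactomedin gene, and Fam20a, a secreted pseudokinase gene, were coding genes of this group too. A further 4 were Gm26911, Gm16552, Gm48749 and Gm43948, predicted transcripts with no function named here. Without WT replicate 1, the log2 change of Gm43948 went from 0.83 to 0.55 and no longer passed 0.01. That of Zfp804b went from 0.57 to 0.39 without WT replicate 2, and that of Olfm2 from 0.49 to 0.40 without HET replicate 1. With clusters weighted equally, only Chn2 of the higher genes named here still passed 0.01. All 9 lay higher in both HET libraries than in both WT libraries. Over all genes tested, 27.8% separated the genotypes in this way in either direction and 13.1% were higher in HET.

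Among genes lower in HET members, Calb1, the gene of the calcium buffer calbindin, rested on 100 and 45 UMIs in WT and 21 and 34 in HET, at 22 and 15.1 CPM for WT against 5.44 and 8.43 CPM for HET. Its log2 change was -1.43 ± 0.32 (adjusted p = 1.0, edgeR). With clusters weighted equally it was -1.07, and without WT replicate 1 or HET replicate 1 it was -1.11 and -1.15, none of which passed 0.01. 6530403H02Rik, a transcript of no known function and one of the leading genes of the members, had 337 and 216 CPM for WT against 132 and 157 CPM for HET (log2 change -0.94 ± 0.22). Its change was the same size in cluster 5 alone, at -0.94, and -0.75 in the other Slc17a7 nuclei. Without WT replicate 1 it was -0.58, and without HET replicate 1, at -0.82, it no longer passed 0.01. Pde11a, a phosphodiesterase gene that leads cluster 19, stood at 68.3 CPM in WT replicate 1, 23.5 in WT replicate 2 and 14.5 and 6.94 in HET. The level was highest in the library with most cluster 19 members. The log2 change was -2.13 ± 0.53, and with clusters weighted equally it shrank to -0.82 and still passed 0.01.

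The other named genes that were lower were the Notch coactivator Maml2, the sulfotransferase Chst9, the sialyltransferase St8sia4, the glycine receptor subunit Glra3, the HMG-box factor Tox3, the carbonic anhydrase Car12 and the ribosomal genes Fau, Rpl9 and Rpl13. Glra3 had 28.5 and 13.8 CPM for WT against 8.04 and 8.67 CPM for HET. Without WT replicate 1, the log2 change of Glra3 went from -1.37 to -0.72, that of Chst9 from -0.86 to -0.53 and that of Tox3 from -0.73 to -0.45, and none passed 0.01. With clusters weighted equally, that of Maml2 went from -0.93 to -0.22 and that of Car12 from -0.85 to -0.27, and neither passed. In cluster 5 alone Maml2 was at -1.08 and passed, while Chst9 was at -0.31 and did not. Rpl13 had 30.5 and 57.1 CPM for WT against 17.6 and 21.3 CPM for HET. Without WT replicate 2, the log2 change of Rpl13 went from -1.15 to -0.64 and that of Rpl9 from -0.99 to -0.64, and neither passed. All 12 were lower in both HET libraries than in both WT libraries, as were 14.6% of all genes tested.

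**Figure D5:**
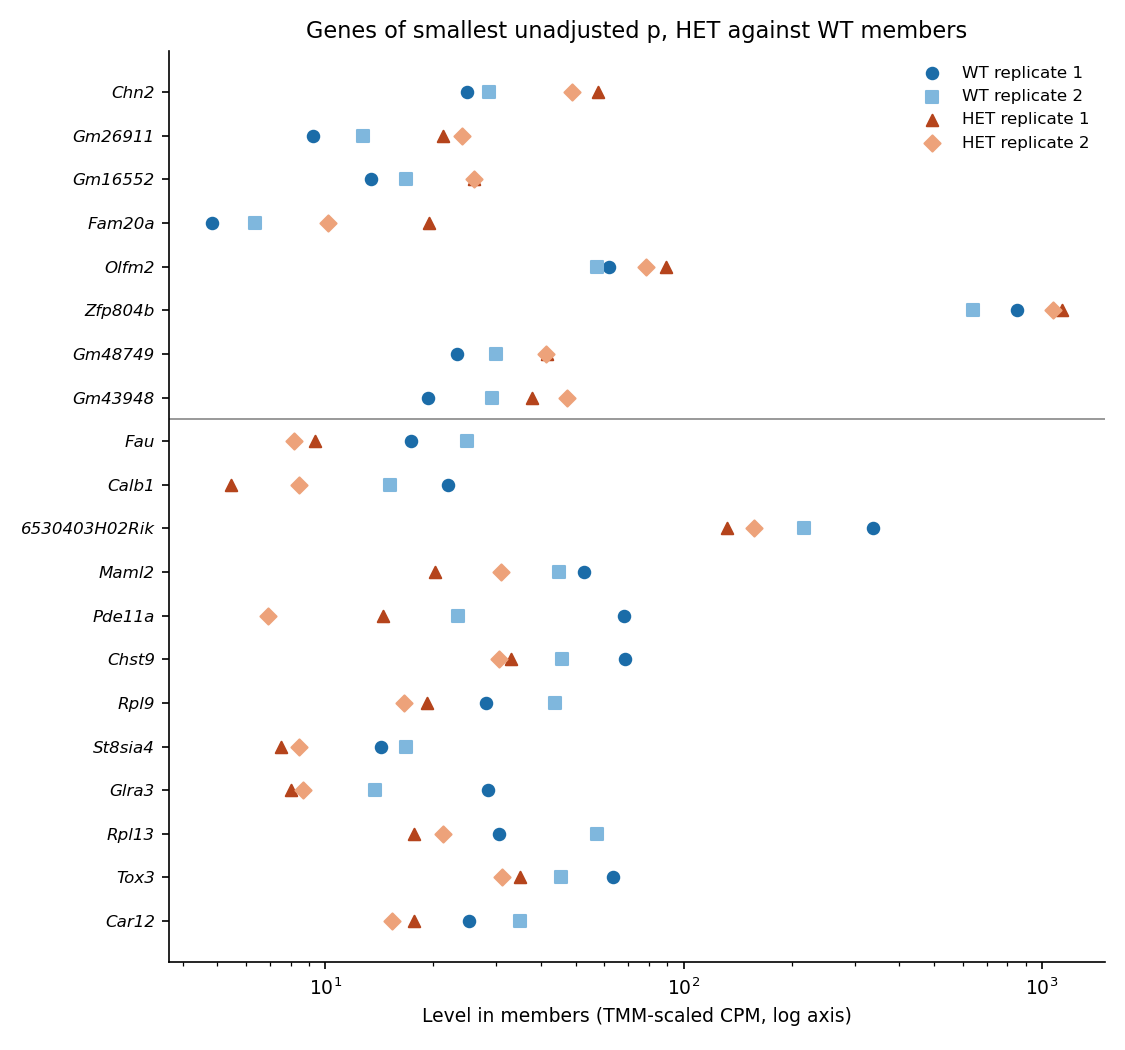
Level in members (horizontal axis, TMM-scaled CPM, log scale) of 20 named genes of the genotype comparison, 8 higher in HET above the line and 12 lower below it, with 1 point per library. WT and HET points do not overlap for any of the 20, none of which passed the adjusted threshold.

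The ribosomal protein list had log2 changes of one sign in this comparison. All 67 tested had a log2 change below 0, 41 of them without overlap between the genotypes (14.6% of all genes were lower in this way), and 4 passed 0.01 (0.203% of all genes): Fau, Rpl9, Rpl13 and Rps7. Their median log2 change was -0.70 in members and -0.74 in the other Slc17a7 nuclei, against -0.00 over all genes, so the shift was not one of the members alone. The summed list stood at 1048 and 2022 CPM in WT members and at 1001 and 884 CPM in HET members, with WT replicate 2 far above the rest. Without WT replicate 2 the median was -0.20 and 41 of 60 were below 0. Without WT replicate 1 the median was -1.11, all 71 were below 0 and 37 passed 0.01. Mitochondrial RNA, Apoe and the oligodendrocyte list (216 CPM against 71.5 in WT replicate 1, 138 and 71.0 in HET) were also highest in WT replicate 2, and their part in the ribosomal shift was not tested.

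The stress and metal genes that were fixed for reading followed the same library. Mt1, a metallothionein gene, had 6.73, 30.6, 5.33 and 6.91 CPM in members in the order WT replicates, HET replicates, Mt3 at 12.2, 27.5, 11.9 and 10.5 CPM, and the glial enzyme gene Aldoc at 7.99, 23.4, 6.09 and 4.53 CPM. Mt2 was carried by 3 to 16 UMIs per library, too few to compare. Csf1r, a gene of microglia, was carried by 4 and 6 UMIs in WT members and 14 and 17 in HET.

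The other lists held 0 to 2 genes past 0.01. Of 16 GABA and glycine receptor genes 2 were lower, Glra2 and Glra3, of 21 glutamate receptor genes 1 was lower, Grik4, and of 23 metal homeostasis genes 1 was lower, the ferritin gene Fth1, against 0.203% of all genes. Fth1 was highest in WT replicate 2, at 129 CPM against 53.8 in WT replicate 1 and 36.8 and 34.9 in HET on the TMM scale. Of 51 respiratory chain genes, 0 passed and the median log2 change was -0.17, or -0.03 without WT replicate 2 and -0.45 without WT replicate 1, when 5 of 55 passed. Of 50 transcription factor genes 1 was higher and 1, Rorb, was lower, and with clusters weighted equally none passed. Rorb stood at 401 CPM in members of cluster 15, most of which came from WT replicate 1, and at 64.1 CPM in cluster 5. The part of this mixture in the Rorb call was not tested. Of 43 potassium channel genes and 13 Wnt genes none passed, with medians of 0.09 and 0.01. Of 20 BMP genes and 18 anion transport genes none passed either, at -0.01 and -0.03.

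The third question was whether the genotype difference in members differed from that in the other Slc17a7 nuclei of the same libraries. The interaction was tested over 8 sums with edgeR's quasi-likelihood test. It passed 0.01 for 65 of 8851 genes (0.734%), 36 with a more positive change in members (0.407%) and 29 with a more negative one (0.328%). None passed an adjusted p of 0.05, and 395 (4.46%) had an unadjusted p under 0.05. On simulated counts the interaction test passed 0.959% of unchanged genes at 0.01, against the 0.734% seen. Members and other nuclei of a library were drawn independently there, unlike in these data, so the shares cannot be compared as chance and result. At the adjusted threshold DESeq2 gave 0 and the likelihood-ratio test 7, and without HET replicate 2 the quasi-likelihood test gave 12. Calb1 had the smallest p: it was lower by a log2 of -1.43 in HET members and by -0.14 in the other nuclei, an interaction of -1.27 ± 0.19 (adjusted p = 0.29, edgeR).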

How the data were processed

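The deposited matrices hold UMI counts per gene and nucleus, made by the authors with Cell Ranger on mm10 and unnormalised, so the counts were used as deposited. A nucleus was kept if it had between 500 and 50000 UMIs, over 200 genes and a mitochondrial share below 5%. Counts of members and of other Slc17a7 nuclei were summed per library. Levels in CPM use all UMIs of the summed nuclei, and those of the genotype fits are TMM-scaled. Genotype and interaction (library, kind of nucleus and their product with genotype) were tested in edgeR 4.0.16 by quasi-likelihood, with Benjamini-Hochberg adjustment over all genes, for genes detected in 10% or more of the members of either genotype and with 10 counts in all. Genes of the rule stayed in the fits and get no p, since the rule truncates their counts. On simulated counts for the 8851 genes, 200 of them changed by a log2 of 1.5, the genotype test at 0.01 recovered 100% and passed 0.936% of unchanged genes.

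The 19491 Slc17a7 nuclei were grouped with scanpy 1.11.5 and leidenalg 0.10.2 on 3000 variable genes, without the 17 genes of the rule, mitochondrial and ribosomal genes (30 components, 20 neighbours, resolution 1). A cluster was named only with at least 3 markers of a list. Doublets were scored with Scrublet and kept, with their removal as an alternative.

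The members and gene lists were chosen with earlier results of these data known. Genes were named by a rule: the rule's genes and markers; the 25 highest and 10 lowest genes by their least extreme ratio over the 4 libraries; up to 12 genes each way by genotype p under 0.01 and 5 each way for the interaction; and up to 4 genes by level and 4 by ratio in each list. Clusters' genes, Rps7 and the genes of the comparisons with Syt6, Rspo1 and Scn7a nuclei were named after their values were seen. Some genes that these rules name are not reported here.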

Additional observations from a re-analysis of the deposited data

Results flagged for a closer look

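The interaction of genotype with kind of nucleus passed an unadjusted p of 0.01 for 65 of 8851 genes (0.734%, edgeR quasi-likelihood test). None passed after adjustment. On simulated counts, where members and other nuclei of a library were drawn independently, this test passed 0.959% of unchanged genes at 0.01. That share cannot say how many would pass in these libraries without a genotype effect. The 10 given here are the 5 of smallest p in each direction. Chn2, Cdh9, Fras1, Sgcd and Cntnap4 had a more positive log2 change in members, Chn2 by 0.77 (adjusted p = 0.33), Cdh9 by 0.44, Fras1 by 0.40, Sgcd by 0.43 and Cntnap4 by 0.42. The others had a more negative one: Calb1 by -1.27 (adjusted p = 0.29), Tshz2 by -0.49, Rorb by -0.58, Alcam by -0.46 and Adamts3 by -0.49.

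For Cdh9 the members changed little (log2 change -0.21 ± 0.17) while the other nuclei were lower in HET (-0.63). Tshz2 was level in members (-0.02) and higher in the other nuclei (0.48). Rorb, a layer 4 gene, stood at 193 and 142 CPM in WT members and 91.3 and 118 CPM in HET members, with means of 393 and 367 CPM in the other nuclei. Among the nuclei of cluster 5 alone, the interaction was -0.01 for Cdh9, 0.03 for Rorb, 0.01 for Sgcd and 0.60 for Chn2, while Calb1 was too low there to test. None of the other 9 genes passed 0.01 there, Chn2 included.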

How the results depend on the processing

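Libraries differ in depth and in the clusters their members come from, and 2 libraries per genotype allow no exact p under 0.333. The difference in the share of kept nuclei, 0.72 percentage points, turned to -0.029 after thinning to 3000 UMIs, where shallower nuclei leave the denominator. The whole rule, exclusions included, was applied anew to the thinned counts, and 188 nuclei met it. Of these, 43 and 46 in WT and 18 and 39 in HET had been members before thinning. The difference was 0.48 among the same nuclei unthinned and 0.028 for the thinned members over all kept nuclei, both chosen after seeing the data. With at least 3 of the 6 genes required, the difference in the share of kept nuclei was 0.36. Without single replicates it ran from 0.49 to 0.95. The share of Slc17a7 nuclei, -0.03, turned to 0.14 at 5 UMIs and 0.0067 without high Scrublet scores, was -0.34 at 3 UMIs, -0.35 thinned and -0.40 at 3000 UMIs unthinned, and ran from -0.75 to 0.68 without single replicates.

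Genotype genes past 0.01 numbered 27, and 64 with the likelihood-ratio test, 70 with no detection filter and 27 to 189 without single replicates (an arm of 1 library is then assumed to vary like the other). The interaction count of 65 became 99 with the likelihood-ratio test, 24 with DESeq2 and 102 with no detection filter, and 86 to 142 without single replicates. Genes enriched 4 times in members, 0, became 9 against Syt6, 7 against Rspo1 and 3 against Scn7a nuclei, and 3 at 2 times in every library. The setting of 2 times, the largest cluster alone and the equal weighting of clusters were chosen after seeing the data. The cause of these changes was not tested.

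The replicate numbers pair nothing in the labels, and the deviations of same-numbered libraries correlated at -0.01 across genes. With the replicate block 39 genes passed 0.01, of which 18 were among the 27. Among the 285 values that could be computed for the 21 genotype genes that the naming rule chose, none changed direction and 106 no longer passed 0.01. Genes under the filter of a setting have no value in it, such as Pde11a without WT replicate 1 and 6 genes in the largest cluster.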

Other observations

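Further lists of genes were read in members against the other Slc17a7 nuclei, with no test, beside the 12.7% of all genes outside the rule that were higher and the 17.9% that were lower in every library. Of 17 receptor genes for GABA and glycine, 5 were higher and 6 lower in every library, with the GABA-A subunit gene Gabra5 at 82.8 against 58.6 CPM and Gabrd at 15.7 against 24.3 CPM. Of 29 sodium and calcium channel genes, 5 were higher and 10 lower. The R-type calcium channel gene Cacna1e stood at 776 against 649 CPM and the auxiliary subunit gene Cacnb4 at 810 against 975 CPM. Of 24 immediate-early genes, 5 were higher and 5 lower, and Bdnf, a neurotrophin gene, stood at 51.3 against 30.3 CPM while Homer1, a synaptic scaffold gene, stood at 390 against 499 CPM. Of 25 neuropeptide and growth factor genes, 5 were higher and 7 lower, with Fgf10 at 26.3 against 14.2 CPM.

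Of the remaining regional lists, that for layer 5 extratelencephalic neurons had 2 of 6 genes higher and none lower, with the cofactor gene Ldb2 at 590 against 410 CPM. The layer 4 list, of which the rule excludes Rspo1, had 3 of 4 lower, the thalamic list 2 of 6 lower and the dentate granule list 2 of 3 lower. In the CA3 list Grik4 stood at 192 against 151 CPM and Nectin3 at 46.0 against 98.4 CPM. Of 33 metal homeostasis genes, 2 were higher and 10 lower, and of 27 integrated stress response genes 1 was higher and 6 lower. The single one was Slc7a11, a cystine transporter gene, at 6.40 against 1.99 CPM.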
